A study of Rattus norvegicus with 12 samples.

Results

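The genes of MHC class II and their invariant chain were described in lung RNA of 12 male Sprague-Dawley rats, an outbred stock, aged 8 to 12 weeks. The members were 8 genes chosen by symbol, namely RT1-Ba, RT1-Bb, RT1-Da, RT1-Db1, RT1-DMa, RT1-DMb, Cd74 and Ciita, of 14919 gene symbols on the array, and 10 of its 30367 probes carried them. The choice also rested on measured values, because the RT1-Bb probes were known to disagree and one of them to be strong in some rats and absent in others, so the RT1-Bb probes are given below without any test. Each rat had an array of its own, with 3 rats in the Control group, 3 in the CS+LPS group, 3 in the CS+LPS+NaHS group and 3 in the CS+LPS+PPG group. The exposed rats breathed cigarette smoke (CS) 2 times a day until day 30, with breaks on the days of instillation, and received lipopolysaccharide (LPS), a bacterial cell wall component, into the trachea on days 5 and 19, which together serve as a rat model of chronic obstructive pulmonary disease. NaHS, a salt that releases H2S, or PPG (propargylglycine), an inhibitor of the H2S-producing enzyme CTH, was injected before each exposure in the respective groups. Lungs were removed 24 h after the final exposure, and RNA came from tissue of the left upper lobe, so that fewer cells of a type and less RNA per cell cannot be told apart.

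MHC class II molecules present peptides of engulfed proteins to CD4+ T cells. Each is a pair of an alpha and a beta chain, which assembles with the invariant chain Cd74 in the endoplasmic reticulum. In endosomes cathepsins degrade Cd74, and the DM pair exchanges the remaining Cd74 fragment for a peptide. In rats RT1-B corresponds to HLA-DQ and RT1-D to HLA-DR of humans, and the presenting chains are among the most variable genes between individuals of a species. In the lung they are carried by dendritic cells, macrophages and B cells, and also by alveolar type 2 cells. Ciita is the transactivator that switches on the whole set through factors bound to the X and Y boxes of their promoters.

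The promoters show what most members share besides their function, so the stretch around the Y box is shown for the 6 members that the RefSeq table of promoters (assembly GRCr8, from 250 bases before to 50 after each gene's start) holds. The RT1-Da stretch lies at chr20:4515321-4515380 on the + strand, RT1-Db1 at chr20:4560228-4560287 on the - strand, RT1-Ba at chr20:4576969-4577028 on the + strand, RT1-Bb at chr20:4604165-4604224 on the - strand, RT1-DMa at chr20:4712385-4712444 on the - strand and Cd74 at chr18:56526972-56527031 on the + strand. Capitals mark the Y box core ATTGG, or its reverse complement in Cd74, and before it a motif at the end of the X box, which is written as ACNGATG.
RT1-Da: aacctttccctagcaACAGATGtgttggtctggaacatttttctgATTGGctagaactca
RT1-Db1: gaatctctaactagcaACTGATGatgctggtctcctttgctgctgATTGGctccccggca
RT1-Ba: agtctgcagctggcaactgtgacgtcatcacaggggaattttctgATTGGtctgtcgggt
RT1-Bb: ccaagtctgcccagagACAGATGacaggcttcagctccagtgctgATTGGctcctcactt
RT1-DMa: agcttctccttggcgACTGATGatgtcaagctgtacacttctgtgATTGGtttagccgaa
Cd74: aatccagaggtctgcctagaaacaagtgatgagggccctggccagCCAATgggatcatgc

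ATTGG was present on either strand in 6 of the 6 promoters and in 37.7% of the promoters of all 27457 genes. The longer form CTGATTGG, which contains the shorter one, was found on either strand in 4 of the 6, those of both RT1-B and both RT1-D genes, and in 3.55% of all promoters. ACNGATG on either strand was found in 4 of the 6 and in 9.96% of all promoters. ACNGATG followed within 50 bases by ATTGG on the strand of the gene was found in the same promoters, those of RT1-Da, RT1-Db1, RT1-Bb and RT1-DMa, and in 0.277% of all promoters. The distance from the first letter of ACNGATG to that of ATTGG was 29 or 30 bases in these 4. The letters of the X box were picked after the promoters had been seen, so these shares are a description.

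Signals are given on the log2 scale after each array was set to a common 75th percentile, so that 1 unit is a 2-fold difference, and a probe is called detected where the scanner software marked it as well above background. Of the 10 member probes, 9 passed the filter of detection on all 3 arrays of at least 1 group, which 21253 of all probes passed. The single RT1-Ba probe (A_44_P128248) was not detected on any of the 12 arrays, with processed signals of 4.96 to 12.2, and no fold change is given for it. The arrays lay on 2 slides scanned separately, with the CS+LPS arrays and Control replicate 3 on slide 2 and all others on slide 1, so that CS+LPS and the treated groups differ also by slide. Control replicate 3 stood apart. Its 75th percentile was 1229 against 2110 to 3261 elsewhere, and the lowest correlation of any pair of arrays over all tested probes was 0.94 with it and 0.98 without it. Values without it are given for the tested member probes and the gene lists. Where rats are said to overlap with Control or to lie apart, this describes the probe alone. The share of all tested probes that do so was not computed.

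The RT1-Bb gene encodes the beta chain of the RT1-B molecule, and its 2 probes gave different pictures. Both lie on chromosome 20 in the positions that the authors list without naming a build (the array header names rn4), probe A_44_P552452 at chr20:4730533-4730583 and probe A_64_P043911 at chr20:4732187-4732246. Probe A_44_P552452 had log2 signals of 13.76, 14.18 and 13.75 in the 3 Control rats and of 2.64, 2.78 and 3.07 in the 3 CS+LPS rats. It read 2.87, 6.46 and 2.32 in the CS+LPS+NaHS rats and 14.35, 14.20 and 2.97 in the CS+LPS+PPG rats. The probe was thus strong in 3 Control and 2 CS+LPS+PPG rats, faint but detected in CS+LPS+NaHS replicate 2, and not detected in the other 6 rats.

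In processed signal, the linear intensity of the scanner software after background subtraction, probe A_44_P552452 of RT1-Bb ran from 7378 to 18498 in Control, reached 21086 and 19221 in CS+LPS+PPG replicates 1 and 2, and was 7.37 in CS+LPS+PPG replicate 3. CS+LPS+NaHS replicate 2 had 101, and its neighbours 7.33 and 5.87. The probe is printed on 2 spots of each array, and the spots gave the same picture. They read 20143 and 22074 in CS+LPS+PPG replicate 1, 8.12 and 6.69 in CS+LPS+PPG replicate 3, and 102 and 99.0 in CS+LPS+NaHS replicate 2. Control exceeded CS+LPS at least 1700-fold, with a mean log2 signal of 13.90 ± 0.24 (SD, n = 3) against a measured 2.83 ± 0.22 (SD, n = 3) that was replaced, for this bound, by the lowest detected signal of each array. This bound belongs to the processed signal. With another background correction (normexp with an offset of 50) the CS+LPS mean of the probe was 6.10, and the bound does not carry over to it. A mean over the CS+LPS+PPG rats would describe none of them. The range of 12.03 log2 units over the 12 arrays was exceeded by 0 of the 21253 tested probes.

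Probe A_64_P043911 of the same gene, RT1-Bb, was detected on all 12 arrays. It had log2 signals of 13.78, 13.91 and 13.31 in Control, 14.58, 14.70 and 15.04 in CS+LPS, 14.66, 14.55 and 14.64 in CS+LPS+NaHS and 14.16, 14.20 and 14.76 in CS+LPS+PPG. Its processed signals ran from 5439 in Control replicate 3 to 36056 in CS+LPS replicate 3. All 9 exposed rats lay above the 3 Control rats. The group mean was higher than in Control by 1.10 in CS+LPS, by 0.95 in CS+LPS+NaHS and by 0.71 in CS+LPS+PPG. Among the CS+LPS+PPG rats, replicate 3, in which the other probe was not detected, was the highest. Across the 12 arrays the RT1-Bb probes had a correlation of -0.85, a description in which the points share the rats and the arrays.

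**Figure D1:**
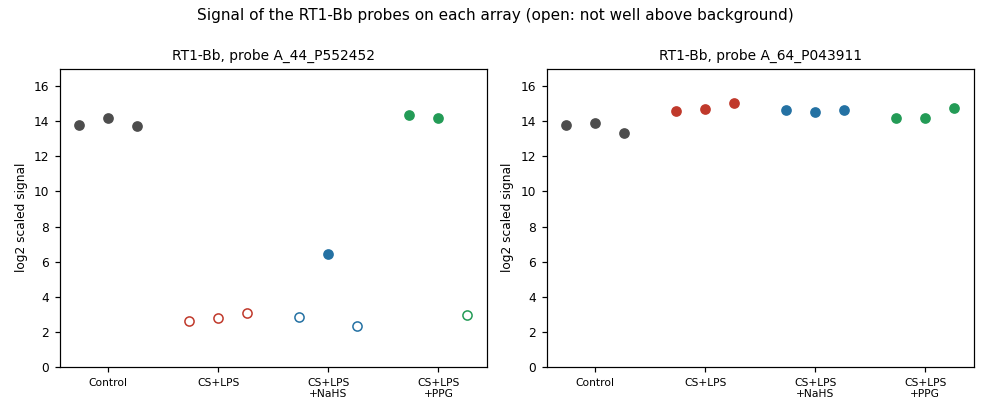
Log2 scaled signal (vertical axis) of the 2 RT1-Bb probes in each of the 12 rats, in the order of replicates within the 4 groups on the horizontal axis. Each point is 1 array and open points were not well above background. The left probe splits the CS+LPS+PPG rats into 14.35 and 14.20 against 2.97, while the right probe stays between 13.31 and 15.04 in all rats.

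The partner chains of the RT1-D molecule were detected in every rat. RT1-Da, the alpha chain (probe A_44_P991532), had log2 signals of 14.14, 14.20 and 13.28 in Control, 14.71, 14.91 and 15.12 in CS+LPS, 14.64, 14.42 and 14.47 in CS+LPS+NaHS and 14.64, 14.85 and 15.17 in CS+LPS+PPG. Every exposed rat was above every Control rat, a description without the share of all probes. RT1-Da was 2.06-fold higher in CS+LPS than in Control (log2 difference 1.04 ± 0.24, SE, adjusted p = 0.0537) and 2.02-fold higher in CS+LPS+PPG (1.01 ± 0.24, SE, adjusted p = 0.0423). In CS+LPS+NaHS the difference was 0.63 ± 0.24 (SE, adjusted p = 0.233). Without Control replicate 3, the lowest of the 12, the log2 differences were 0.74, 0.71 and 0.34 for CS+LPS, CS+LPS+PPG and CS+LPS+NaHS.

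RT1-Db1 encodes the beta chain, and its 2 probes disagreed as well. Probe A_64_P130578 read 14.14, 14.30 and 13.63 in Control, 14.34, 14.40 and 14.76 in CS+LPS, 14.30, 14.25 and 14.25 in CS+LPS+NaHS and 14.46, 14.30 and 14.46 in CS+LPS+PPG. On this probe of RT1-Db1 the log2 difference from Control was 0.48 ± 0.18 (SE, adjusted p = 0.137) in CS+LPS, 0.24 ± 0.18 (SE, adjusted p = 0.479) in CS+LPS+NaHS and 0.39 ± 0.18 (SE, adjusted p = 0.173) in CS+LPS+PPG, and 0.29, 0.05 and 0.19 without Control replicate 3. Probe A_64_P134927 read 14.34, 14.50 and 13.97 in Control, 13.54, 13.47 and 13.82 in CS+LPS, 13.30, 13.41 and 13.47 in CS+LPS+NaHS and 14.74, 14.60 and 13.67 in CS+LPS+PPG. It was highest in CS+LPS+PPG replicates 1 and 2 and in the 3 Control rats, the rats in which RT1-Bb probe A_44_P552452 was strong, and CS+LPS+PPG replicate 3 fell among the CS+LPS rats.

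The second RT1-Db1 probe thus had the opposite sign, with a log2 difference from Control of -0.66 ± 0.25 (SE, adjusted p = 0.149) in CS+LPS and of -0.88 ± 0.25 (SE, adjusted p = 0.156) in CS+LPS+NaHS, and of 0.07 ± 0.25 (SE, adjusted p = 0.883) in CS+LPS+PPG. With all arrays in the fit neither RT1-Db1 probe reached a 2-fold difference or an adjusted p under 0.05 in these comparisons. Without Control replicate 3 the second probe was 1.03 lower in CS+LPS+NaHS (log2 difference -1.03), past the fold threshold, and the signs in CS+LPS (-0.81) and CS+LPS+PPG (-0.08) were then both negative. The correlation of the RT1-Db1 probes with RT1-Bb probe A_44_P552452 over the 12 arrays was 0.89 for A_64_P134927 and -0.45 for A_64_P130578. The class II genes are close copies of each other, and which transcripts each probe bound was not tested.

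The DM pair, which exchanges the invariant chain fragment for peptides, was higher in every exposed rat than in every Control rat. How many of all tested probes lie apart in this way was not computed. RT1-DMa, its alpha chain (probe A_64_P128478, listed at chr20:4844372-4844431), had log2 signals of 11.22, 11.60 and 10.41 in Control, 12.18, 12.05 and 12.40 in CS+LPS, 12.05, 12.11 and 12.16 in CS+LPS+NaHS and 12.07, 11.87 and 12.26 in CS+LPS+PPG. RT1-DMa was 2.19-fold higher in CS+LPS than in Control (1.13 ± 0.25, SE, adjusted p = 0.0494), 2.04-fold in CS+LPS+NaHS (1.03 ± 0.25, SE, adjusted p = 0.128) and 1.99-fold in CS+LPS+PPG (0.99 ± 0.25, SE, adjusted p = 0.0493). Without Control replicate 3 the RT1-DMa differences were 0.80 (adjusted p = 0.049), 0.70 (adjusted p = 0.142) and 0.66 (adjusted p = 0.0577).

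RT1-DMb, the beta chain (probe A_64_P062110), read 11.87, 11.93 and 11.23 in Control, 12.29, 12.43 and 12.97 in CS+LPS, 12.29, 12.32 and 12.30 in CS+LPS+NaHS and 12.58, 12.54 and 12.52 in CS+LPS+PPG. The CS+LPS+NaHS and CS+LPS+PPG rats lay close together within their groups, with SDs of 0.02 and 0.03, while CS+LPS spread over 0.36 (SD, n = 3 each). The log2 difference from Control was 0.89 ± 0.21 (SE, adjusted p = 0.0566) in CS+LPS, 0.62 ± 0.21 (SE, adjusted p = 0.197) in CS+LPS+NaHS and 0.87 ± 0.21 (SE, adjusted p = 0.0439) in CS+LPS+PPG. Without Control replicate 3 the RT1-DMb differences were 0.66 (adjusted p = 0.0917), 0.40 (adjusted p = 0.342) and 0.65 (adjusted p = 0.0698), so that the call in CS+LPS+PPG was lost.

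Cd74, the invariant chain (probe A_44_P549494), gave processed signals of 24734 to 110180 with 0 saturated spots. It read 15.86, 16.003 and 15.50 in Control, 16.25, 16.14 and 16.61 in CS+LPS, 16.25, 16.38 and 16.32 in CS+LPS+NaHS and 16.15, 15.98 and 16.24 in CS+LPS+PPG. CS+LPS and CS+LPS+NaHS lay above all Control rats, whereas CS+LPS+PPG overlapped with Control. The Cd74 log2 differences were 0.55 ± 0.17 (SE, adjusted p = 0.0964), 0.53 ± 0.17 (SE, adjusted p = 0.182) and 0.34 ± 0.17 (SE, adjusted p = 0.201) for the CS+LPS, the NaHS and the PPG groups, below the 2-fold threshold, and 0.40, 0.38 and 0.19 without Control replicate 3.

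Ciita, the transactivator (probe A_64_P010569), read 8.35, 7.89 and 8.78 in Control, 8.68, 8.38 and 8.92 in CS+LPS, 8.48, 9.01 and 8.54 in CS+LPS+NaHS and 8.17, 8.38 and 8.62 in CS+LPS+PPG. All exposed groups overlapped with Control. Unlike most other members, Ciita was highest among the Control rats in replicate 3. The log2 differences of Ciita were 0.32 ± 0.24 (SE, adjusted p = 0.408), 0.33 ± 0.24 (SE, adjusted p = 0.48) and 0.05 ± 0.24 (SE, adjusted p = 0.909) in the same order, and the 95% interval in CS+LPS reached from -0.22 to 0.85. They were larger without Control replicate 3, at 0.54, 0.55 and 0.27.

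**Figure D2:**
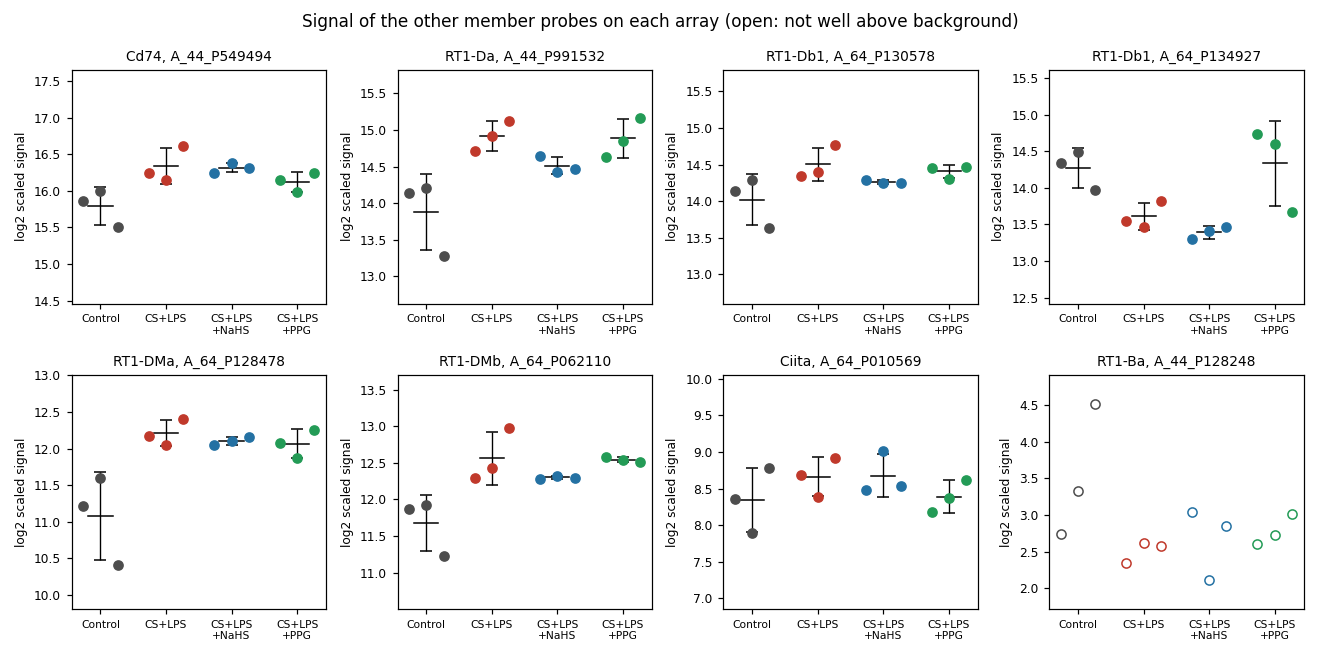
Log2 scaled signal (vertical axes, each spanning the same 3.2 units) of the 8 other member probes in each rat, in the order of replicates within the 4 groups on the horizontal axis. Each point is 1 array, horizontal lines are means, bars are SD (n = 3), and open points (RT1-Ba, drawn without a mean) were not well above background. Of the 7 probes detected in every rat, Control replicate 3 is the lowest Control rat for 6 and the highest for Ciita, at 8.78.

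The first question was how the exposure to CS and LPS changed the set as a whole. A probe was called differentially expressed (DE) if it differed 2-fold or more with an unadjusted p below 0.05, and counts by an adjusted p under 0.05 are given apart. Of the 7 member probes that were tested, the 2 of RT1-Da and RT1-DMa were DE between CS+LPS and Control, both higher, against 4.61% of all tested probes. By adjusted p it was 1 of 7, RT1-DMa, against 2.11%. The median log2 difference of the 7 was 0.55, and 6 of the 7 were higher, where the median of all tested probes was -0.06.

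In CS+LPS+NaHS against Control, 1 of the 7 member probes was DE, RT1-DMa, against 2.59% of all tested probes, and 0 passed the adjusted p, against 0.122%, although 5 had an unadjusted p under 0.05 in limma, against 17.6% of all tested probes, and 4 in the methods' t-test, a plain test on the same values, against 11.1%. The median log2 difference was 0.53, against 0.02 for all tested probes. In CS+LPS+PPG against Control, 1 of 7 was DE, RT1-Da, against 4.31%, and 3 passed the adjusted p, RT1-Da, RT1-DMa and RT1-DMb, against 5.2% of all tested probes. The median there was 0.39, against -5e-04 for all. These comparisons share the Control rats, so that a low Control value raises each of them. Without Control replicate 3 the members' medians were 0.54 for CS+LPS, 0.38 for CS+LPS+NaHS and 0.27 for CS+LPS+PPG, and 0, 1 and 0 of the 7 were DE, the 1 being the lower RT1-Db1 probe A_64_P134927. By adjusted p 1, 0 and 0 passed without this array, so that all 3 calls in CS+LPS+PPG were lost, where 3.35% of all tested probes passed. With quantile normalization 0, 0 and 0 passed, against 0.946%, 0.0753% and 4.2% of all. By fold change and unadjusted p, 1 was DE in CS+LPS without CS+LPS replicate 3, against 3.4% of all tested probes. In CS+LPS+PPG 0 were DE without CS+LPS+PPG replicate 3, against 3.9%. There 2 were DE, RT1-DMa besides RT1-Da, without Control replicate 1, Control replicate 2 or CS+LPS+PPG replicate 2, against 6.31%, 7.89% and 4.33%.

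Control replicate 3 is the only Control array on the slide of the CS+LPS arrays. Against it alone, the 3 CS+LPS arrays gave log2 differences of 1.80 for RT1-DMa, 1.64 for RT1-Da, 1.33 for RT1-DMb, 0.87 for RT1-Db1 probe A_64_P130578 and 0.84 for Cd74, and of -0.36 for RT1-Db1 probe A_64_P134927 and -0.12 for Ciita. With slide as a block in the fit of all arrays, 5 of the 7 passed the adjusted p in CS+LPS against Control, where 41.1% of all tested probes passed, and this contrast rests on Control replicate 3 alone. In CS+LPS+PPG against Control 0 passed and 0 were DE, against 3.34% and 3.2% of all. On slide 1, against the other Control rats, CS+LPS+NaHS gave 0.70 for RT1-DMa, 0.55 for Ciita, 0.40 for RT1-DMb, 0.38 for Cd74 and 0.34 for RT1-Da. RT1-Db1 gave 0.05 on probe A_64_P130578 and -1.03 on probe A_64_P134927. CS+LPS+PPG gave 0.71 for RT1-Da, 0.66 for RT1-DMa, 0.65 for RT1-DMb, 0.27 for Ciita and 0.19 for Cd74. There RT1-Db1 gave 0.19 on probe A_64_P130578 and -0.08 on probe A_64_P134927. Within slide 1, 1 of the 7 passed the adjusted p in CS+LPS+PPG, RT1-DMb (adjusted p = 0.0207 in limma), against 5.15% of all tested probes. In CS+LPS+NaHS 0 passed there, against 0.00941%.

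The remaining question was whether NaHS or PPG changed class II in exposed rats. Of the 7 member probes, 0 were DE in CS+LPS+NaHS against CS+LPS, against 1.95% of all tested probes by fold change and 0.743% by adjusted p. With limma 0 of these had an unadjusted p under 0.05, against 10.1% of all tested probes, and with the methods' t-test 1, against 12.9%. The log2 differences ran from -0.41 for RT1-Da, whose 95% interval was -0.94 to 0.12, to 0.02 for Ciita. In CS+LPS+PPG against CS+LPS, 0 of 7 were DE, against 2.14% by fold change and 0.588% by adjusted p. With limma 1 had an unadjusted p under 0.05, against 10.9%, and with the methods' t-test 0, against 10.4%. That 1 was RT1-Db1 probe A_64_P134927, with a log2 difference of 0.72 ± 0.25 (SE, adjusted p = 0.322), which was 1.06 and DE without CS+LPS+PPG replicate 3. The intervals do not show that the groups are alike.

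These are also comparisons between slides. With slide as a block, a fit in which only Control replicate 3 links the slides, RT1-Da was 1.30 lower (log2 difference -1.30, adjusted p = 0.0116) and RT1-DMa 1.10 lower (-1.10, adjusted p = 0.0176) in CS+LPS+NaHS than in CS+LPS, and RT1-DMa was 1.14 lower (-1.14, adjusted p = 0.0158) in CS+LPS+PPG. By adjusted p 4 and 2 of the 7 member probes passed in this fit, but so did 22.8% and 22.3% of all tested probes, and the 2 of 7 in CS+LPS+PPG are near that share. By fold change and p it was 2 and 1 of 7, near the 20.4% and 20.2% of all tested probes. The treatment and the slide cannot be told apart without that single array.

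**Figure D3:**
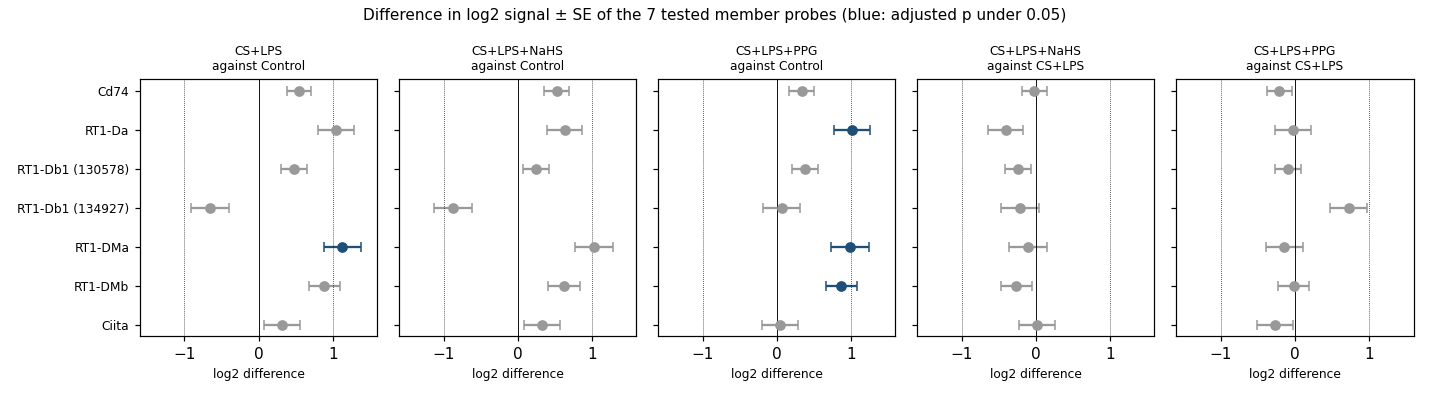
Difference in log2 signal (horizontal axes) of the 7 tested member probes (rows) in the 5 comparisons (panels), with bars of ± SE and dotted lines at a 2-fold change. Blue points passed an adjusted p under 0.05, namely RT1-DMa in CS+LPS and RT1-Da, RT1-DMa and RT1-DMb in CS+LPS+PPG, each against Control, and no point passed it between exposed groups.

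The other class II genes were on a list of 5, of which 3 had a probe and 2 were tested. RT1-DOa, a chain of the DO pair that inhibits DM (probe A_44_P344228), read 5.99, 6.64 and 5.50 in Control, 7.26, 7.36 and 7.82 in CS+LPS, 7.25, 7.23 and 7.35 in CS+LPS+NaHS and 6.83, 7.20 and 7.30 in CS+LPS+PPG. RT1-DOa rose 2.71-fold in CS+LPS (log2 difference 1.44 ± 0.26, SE, adjusted p = 0.0288), 2.35-fold in CS+LPS+NaHS (1.24 ± 0.26, SE, adjusted p = 0.115) and 2.10-fold in CS+LPS+PPG (1.07 ± 0.26, SE, adjusted p = 0.0451) and was DE in each. Without Control replicate 3 the RT1-DOa differences were 1.17 (adjusted p = 0.0433), 0.96 and 0.80 (adjusted p = 0.0772), so that it was DE in CS+LPS alone. RT1-DOb, its partner, was apart from it, with a log2 difference of 0.04 ± 0.15 (SE, adjusted p = 0.874) in CS+LPS, 0.50 ± 0.15 (SE, adjusted p = 0.155) in CS+LPS+NaHS and 0.58 ± 0.15 (SE, adjusted p = 0.0483, and 0.0712 without Control replicate 3) in CS+LPS+PPG. RT1-Ha, a further alpha chain gene, was detected in 6 rats, all of them exposed, and did not pass the filter.

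A further probe was singled out after its values were seen. LOC688090, a locus whose name describes it as similar to the RT1-B beta chain, had log2 signals of 13.20, 13.33 and 12.77 in Control, 14.15, 14.29 and 14.54 in CS+LPS, 14.22, 14.17 and 14.24 in CS+LPS+NaHS and 13.60, 13.61 and 14.35 in CS+LPS+PPG. It was high in CS+LPS+PPG replicate 3 and lower in replicates 1 and 2, as RT1-Bb probe A_64_P043911 was.

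The genes that prepare peptides for class II moved less than the 2-fold threshold. Of 12 such genes 0 were DE against Control in any exposed group, with 5, 4 and 5 at an unadjusted p under 0.05 in limma (4, 4 and 3 in the methods' t-test) for the CS+LPS, the NaHS and the PPG groups. Of all tested probes 25.4%, 17.6% and 29.6% had such a p in limma and 12%, 11.1% and 18.2% in the methods' t-test. By fold change and p 4.61%, 2.59% and 4.31% of all were DE. By adjusted p, which 2.11%, 0.122% and 5.2% of all passed, 2, 0 and 2 of the 12 rose. These were Ifi30, a thiol reductase of the endosome, with log2 differences of 0.87 ± 0.16 (SE, adjusted p = 0.0322) in CS+LPS and 0.83 ± 0.16 (SE, adjusted p = 0.0283) in CS+LPS+PPG, and Ctsd, the protease cathepsin D, with 0.68 ± 0.13 (SE, adjusted p = 0.0366) and 0.54 ± 0.13 (SE, adjusted p = 0.0455). Ifi30 still passed without Control replicate 3 (adjusted p = 0.0472 and 0.0398) and Ctsd did not (0.0578 and 0.0723). Ctss, the cathepsin that trims Cd74, showed 0.65 ± 0.25 (SE, adjusted p = 0.146) in CS+LPS and 0.83 ± 0.25 (SE, adjusted p = 0.0691) in CS+LPS+PPG. Ctsb showed 0.24 ± 0.10 (SE, adjusted p = 0.186) in CS+LPS. The medians of the list were 0.49, 0.43 and 0.53, and 0.15, 0.17 and 0.11 without Control replicate 3.

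Of the 15 tested regulators of class II transcription, Zbtb32 is described below without a test. Among the others Spi1 alone was DE against Control, in CS+LPS and CS+LPS+NaHS, where 4.61% and 2.59% of all tested probes were DE. In CS+LPS+PPG no regulator besides Zbtb32 passed the DE thresholds, against 4.31%. The medians of all 15 were 0.10, 0.35 and 0.30 in the CS+LPS, the NaHS and the PPG groups (0.13, 0.19 and 0.22 without Control replicate 3). Spi1 (PU.1), a factor of myeloid and B cells, was 2.14-fold higher in CS+LPS (1.10 ± 0.29, SE, adjusted p = 0.0706) and 2.08-fold in CS+LPS+NaHS (1.06 ± 0.29, SE, adjusted p = 0.144), but 0.77 and 0.73 on the log2 scale, below the threshold, without Control replicate 3. Zbtb32, a repressor of Ciita, was detected in the 3 CS+LPS rats, in 2 rats of either treated group and in 0 Control rats. It passed the filter through CS+LPS alone, where it is high, so its values are a description with no test, set against a Control level computed as in the bound for RT1-Bb. Zbtb32 was at least 2.68-fold higher in CS+LPS than in Control. Against the same level the means were 2.02-fold in CS+LPS+NaHS and 2.70-fold in CS+LPS+PPG. These means include a rat in which Zbtb32 was not detected, so they are not strict bounds. With Control replicate 3 left out, Irf8, a factor of myeloid and dendritic cells, was DE in CS+LPS+PPG (1.19, adjusted p = 0.0494). No other regulator besides Zbtb32 then passed the DE thresholds against Control. Irf1, a factor at the Ciita promoter, had 0.10 ± 0.12 (SE, adjusted p = 0.58) in CS+LPS. Irf4, Ifng and Il10 had probes that did not pass the filter.

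Of the 7 tested genes for co-stimulation and partners of class II, 0 were DE against Control in any exposed group, with 3, 1 and 3 at an unadjusted p under 0.05 in limma (3, 1 and 2 in the methods' t-test). Of all tested probes 4.61%, 2.59% and 4.31% were DE, and 25.4%, 17.6% and 29.6% had such a p in limma. The medians of the 7 genes were 0.50, 0.31 and 0.44, and 0.45, 0.30 and 0.25 without Control replicate 3. Cd83, a surface protein of mature dendritic cells that keeps class II at the surface, rose by adjusted p in CS+LPS (0.73 ± 0.14, SE, adjusted p = 0.0367) and in CS+LPS+PPG (0.99 ± 0.14, SE, adjusted p = 0.018), and passed without Control replicate 3 as well (adjusted p = 0.0472 and 0.0189), where it was DE in CS+LPS+PPG at 1.03. Cd40, the co-stimulatory receptor, had 0.50 ± 0.15 (SE, adjusted p = 0.0986), and Mif, a ligand of Cd74, had -0.04 ± 0.12 (SE, adjusted p = 0.853) in CS+LPS. Cd80 did not pass the filter.

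Class I loading genes of the MHC region, and B2m, were compared as neighbours in place and function. Of the 6 tested, Psmb8, an immunoproteasome subunit, was DE in CS+LPS+NaHS (2.15-fold, adjusted p = 0.242) and CS+LPS+PPG (2.87-fold, adjusted p = 0.0616), and Psmb9 in CS+LPS+PPG (2.09-fold, adjusted p = 0.0181). With Control replicate 3 left out, Psmb8 was 1.51-fold and 2.02-fold and Psmb9 1.94-fold (adjusted p = 0.0241), so that of these calls the one of Psmb8 in CS+LPS+PPG remained. Tap2, a subunit of the peptide transporter, was DE and lower in CS+LPS (log2 difference -1.80 ± 0.59, SE, adjusted p = 0.11) and spread over 1.51 (SD, n = 3) within that group. Without Control replicate 3 Tap2 was still DE and lower in CS+LPS (log2 difference -1.507, adjusted p = 0.239). The list's medians were 0.15, 0.22 and 0.50, and -0.02, 0.07 and 0.30 without Control replicate 3. Of all tested probes 4.61%, 2.59% and 4.31% were DE, and 2.97%, 2.06% and 3.25% without that array.

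Of the cells that carry class II, B cells and macrophages had larger marker medians against Control than dendritic and alveolar type 2 cells. Macrophages and dendritic cells were close without Control replicate 3, with macrophage medians of 0.30, 0.35 and 0.48 and dendritic medians of 0.24, 0.22 and 0.46. The mean log2 level of 6 pan-leukocyte markers was 12.52 to 13.80 in Control, with the lowest value in Control replicate 3, against 13.87 to 14.26 in CS+LPS, 13.85 to 14.04 in CS+LPS+NaHS and 13.94 to 14.08 in CS+LPS+PPG. Their median differences from Control were 0.93, 0.86 and 0.71 (0.50, 0.35 and 0.28 without Control replicate 3), all 6 were higher in each exposed group, and 2, 0 and 2 were DE (0, 0 and 0 without Control replicate 3, and 0, 0 and 1 in the methods' t-test with it). Of all tested probes 4.61%, 2.59% and 4.31% were DE, and 2.97%, 2.06% and 3.25% without Control replicate 3. In the methods' t-test 2.1%, 1.26% and 2.37% of all were DE. By adjusted p 2.11%, 0.122% and 5.2% of all passed, and 1.48%, 0.16% and 3.35% without that array. The 13 tested macrophage markers had medians of 0.70, 0.65 and 0.81 (0.30, 0.35 and 0.48 without Control replicate 3), with 4, 2 and 3 DE higher, among them Cd68 (2.58-fold in CS+LPS, adjusted p = 0.0283), and 1 DE lower, Cd163 in CS+LPS (0.374-fold, adjusted p = 0.161), which was not DE without Control replicate 3. By adjusted p 2, 0 and 4 macrophage markers passed, and 1, 0 and 2 without that array. The 10 B cell markers had medians of 0.97, 1.16 and 0.70, with 4, 7 and 3 DE, all higher, including Ms4a1 (2.07-fold in CS+LPS, adjusted p = 0.0456). Of these B cell markers 2, 0 and 1 passed the adjusted p and 2, 4 and 2 were DE in the methods' t-test, and without Control replicate 3 the medians were 0.93, 1.07 and 0.75 with 4, 6 and 2 DE. Cd22 and Fcer2, detected in 2 and 1 of the Control rats, passed the filter only through exposed groups. Both are in the DE counts of CS+LPS and CS+LPS+NaHS with all arrays. Fcer2 is also in that of CS+LPS+PPG, and in the count of each exposed group without Control replicate 3. Their part in these counts is a description. The part of leukocytes, macrophages and B cells in the class II values was not tested.

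Dendritic cell markers had medians of 0.31, 0.35 and 0.42 (0.24, 0.22 and 0.46 without Control replicate 3) over 8 tested genes, with 1, 0 and 1 DE. The gene was Batf3, a factor of cross-presenting dendritic cells (2.03-fold in CS+LPS, adjusted p = 0.0676, and 2.36-fold in CS+LPS+PPG, adjusted p = 0.0336). Batf3 was 1.75-fold and 2.03-fold without Control replicate 3 (adjusted p = 0.134 and 0.0582). Xcr1 was not tested for low signal, and Itgax, Flt3 and Cd209 had no probe under their symbols. Of all tested probes 4.61%, 2.59% and 4.31% were DE against Control in the CS+LPS, the NaHS and the PPG groups. Without Control replicate 3 these shares were 2.97%, 2.06% and 3.25%. The 12 T cell markers had medians of 0.43, 0.53 and 0.72, with 1, 0 and 4 DE, of which 0 passed the adjusted p in limma, and 0 were DE in the methods' t-test. With limma 4, 1 and 5 of them had an unadjusted p under 0.05, against 25.4%, 17.6% and 29.6% of all tested probes. Without Control replicate 3 the medians were 0.14, 0.11 and 0.26 with 0 DE. The T cell marker that was DE in CS+LPS was Cd2, which was also among the 4 in CS+LPS+PPG. It was detected in 2 of the Control rats and passed the filter only through exposed groups, so its calls in both groups are a description. The 9 alveolar type 2 markers, which check the tissue, had mean levels of 14.84 to 15.32 over the 12 rats and medians of 0.13, 0.20 and 0.0015, with 0, 0 and 1 DE. These medians turned negative without Control replicate 3, at -0.16, -0.03 and -0.08. The 1 was Lamp3, which mature dendritic cells also carry (2.22-fold in CS+LPS+PPG, adjusted p = 0.018, and 1.998-fold without Control replicate 3, adjusted p = 0.0207). Among 9 genes of thymus and lymph node stroma with a probe, 5 did not pass the filter, Rag1, Foxn1 and Aire among them, and the 4 tested had median differences of 0.33, -0.07 and 0.52 (0.35, 0.21 and 0.41 without Control replicate 3). The 4 tested pancreas genes had median differences of -0.32, 0.85 and 0.59 (-0.11, 0.77 and 0.61 without that array), and Prss1, Cpb1, Pnlip, Cela2a and Amy2a3 did not pass the filter.

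**Figure D4:**
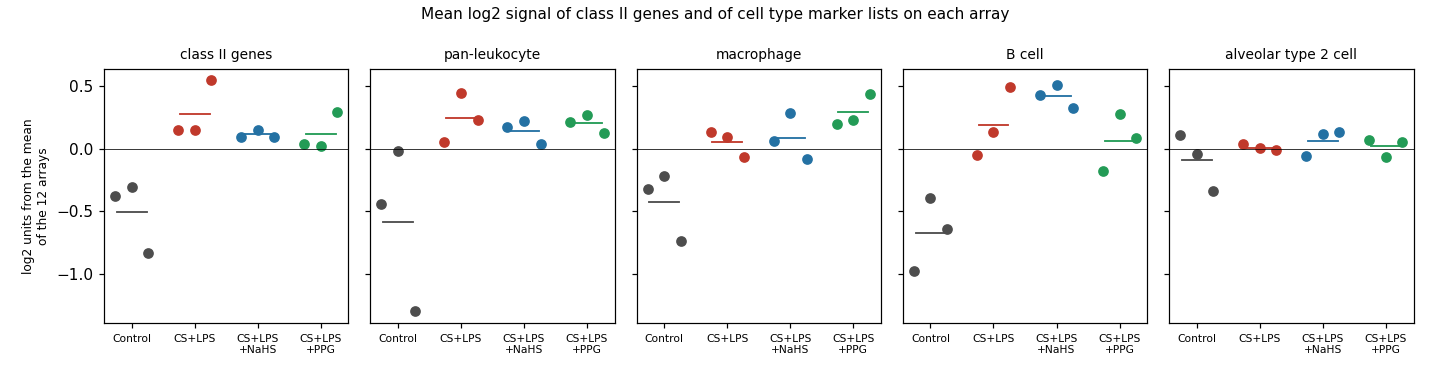
Mean log2 signal, as the distance from its mean over the 12 arrays (vertical axis), of the class II genes (most intense probe of each of 7 members detected in all rats, RT1-Bb A_64_P043911 included) and of 4 marker lists, in each rat of the 4 groups on the horizontal axis. Each point is 1 array and lines are group means. The class II mean lay from -0.84 to -0.31 in Control and from 0.02 to 0.55 in exposed rats, and Control replicate 3 was lowest for class II, pan-leukocyte, macrophage and alveolar type 2 genes. The class II mean holds an RT1-Bb probe known when the part was chosen and leaves out RT1-Db1 probe A_64_P134927, so these ranges are a description.

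The genes most like the class II set over the 12 arrays were sought, members left out, against the mean of 7 members, each by its most intense probe detected in all rats. It includes RT1-Bb probe A_64_P043911, whose values were known when the part was chosen. RT1-Db1 probe A_64_P134927, less intense than the other, is left out of it and had r = -0.38 with it, so the mean is a description. That mean lay at -0.38, -0.31 and -0.84 in Control, 0.15, 0.15 and 0.55 in CS+LPS, 0.09, 0.15 and 0.10 in CS+LPS+NaHS and 0.03, 0.02 and 0.29 in CS+LPS+PPG. The most like was Ifi30 (r = 0.97, n = 12 arrays), the endosomal thiol reductase named above, followed by Iqgap3 (0.97), Gapdh (0.96), Or1f26 (0.96), Rgs19 (0.96), Atox1 (0.96), RT1-DOa (0.96), Tmem37 (0.95), Nubp1 (0.95) and Pfn1 (0.95). The points share the slides and the low Control replicate 3, and Gapdh, a glycolytic enzyme often used as a reference gene, had 13.35 there against 13.77 and 13.94 in the other Control rats and 14.36 in CS+LPS replicate 3. Of the members in the mean, Ciita followed it least (r = 0.28), and the others, which contribute to it, had r of 0.91 to 0.97.

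The strong and absent signals of RT1-Bb probe A_44_P552452 were most like those of Vps52 among tested probes with a symbol other than the members', a subunit of an endosome-to-Golgi tethering complex (r = 0.93, n = 12 arrays). Vps52 read 9.52, 9.70 and 9.74 in Control, 8.77, 8.94 and 9.18 in CS+LPS, 8.94, 8.94 and 9.04 in CS+LPS+NaHS and 9.55, 9.58 and 8.79 in CS+LPS+PPG. As for RT1-Bb and the second RT1-Db1 probe, CS+LPS+PPG replicate 3 stood apart from replicates 1 and 2, here by 0.76 or more. Vps52 lies in the same MHC region of chromosome 20, with 19 protein-coding genes between it and RT1-Bb in assembly GRCr8. The members were left out of this order, in which RT1-Db1 probe A_64_P134927 (r = 0.89) would come after Vps52. Of the 10 most alike other genes, Vps52 was the only one on that chromosome, which held 3.32% of the tested probes with a known chromosome. The next were Pou1f1 (0.84), Uhmk1 (0.83), Plekhf2 (0.83), Btbd7 (0.81), Tdrd7 (0.80), Pcyox1l (0.79), Zcchc2 (0.79), Mcf2l (0.79) and Tmem74 (0.79).

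A signal is called all-or-none here if a probe was detected on at least 1 array of a group, not detected on at least 1 other array of that group, and spread over at least 4 log2 units among the 3. This held for 364 of the 30367 probes (1.2%), of which 232 did so within Control, 49 within CS+LPS, 37 within CS+LPS+NaHS and 77 within CS+LPS+PPG, some in more than 1 group. Among them 4 had an RT1 symbol, RT1-Bb, RT1-CE10, RT1-CE5 and RT1-M4. The class I genes RT1-CE10 and RT1-CE5 were low in a different set of rats than RT1-Bb, and the sets share CS+LPS+PPG replicate 3. RT1-CE10 read 10.04, 4.84 and 9.29 in Control, 9.51, 11.08 and 10.75 in CS+LPS, 10.98, 10.96 and 10.22 in CS+LPS+NaHS and 9.93, 5.40 and 5.67 in CS+LPS+PPG, and RT1-CE5 was lowest in the same 3 rats, Control replicate 2 at 4.78 and CS+LPS+PPG replicates 2 and 3 at 5.32 and 5.07. In CS+LPS+PPG replicate 2 RT1-Bb was strong while these were low, and in replicate 1 all were strong.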

How the data were processed

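RNA from the lung of each rat was hybridised in 1 colour to an Agilent rat array. The authors scanned the arrays with Feature Extraction 10.7.3.1 and deposited, for each spot, an intensity after background subtraction (processed signal), a median signal and flags. Per the file headers the array design refers to rn4. The authors also deposited 5 lists of DE probes with log2 signals of each rat. Their normalization is not given in the sources used here, and they were used only to compare the RT1-Bb signals. The fold changes, p-values and directions in these lists were not used, and 60 further columns of single arrays (flags) were not used.

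The processed signal was converted to log2, the 75th percentile of each array over non-control spots was subtracted and the mean percentile was added back. Spots marked as outliers were left out and spots of a probe were averaged. Where every spot of a probe was marked, which befell 35 pairs of a probe and an array, all were used. Symbols came from RefSeq accessions (17514 probes, table of assembly GRCr8, names only) or from the lists (194), and 12659 probes had none. Tests used limma 3.58.1 in R 4.3.3 on all 12 arrays and all 21253 tested probes, with two-sided p-values and Benjamini-Hochberg adjustment over all of them. All p-values measure the spread between the 3 rats of a group, each on 1 array, and this number limits the precision. The fit was tested on simulated data. Groups came from the sample labels. The replicate numbers were not taken as pairs, as correlations of the deviations of same-numbered arrays ran from -0.21 to 0.14.

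The members and all gene lists were chosen with earlier results of these data known. The text names every member probe and, for the lists of class II function and class I loading, the DE genes and some of the most intense, to which genes past the adjusted p and genes that did not pass the filter were added after their values were seen. Of the marker lists some genes are named as examples. The values of a listed regulator gene are not reported here. The most intense tested probe stands for a listed gene. Alternatives were quantile normalization, another percentile, normexp with an offset of 50 on the median signal (these files hold no mean signal), keeping outlier spots, a block for the slide or for the replicate number, 3 more filters, 2 groups only, the methods' t-test, arrays of 1 slide, and leaving out each array. The gene lists without Control replicate 3 were added after seeing the data. Probe sequences were not used here.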

Additional observations from a re-analysis of the deposited data

How the results depend on the processing

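The direction of RT1-Da, RT1-DMa, RT1-DMb and Cd74 against Control was the same under every alternative run, and 0 of the called differences reversed. The sign of Ciita changed, to -0.12 in CS+LPS with slide as a block. In CS+LPS+PPG Ciita ran from -0.17 to 0.27 with each array left out, and RT1-Db1 probe A_64_P134927 from -0.13 to 0.40. Over single member probes, 798 alternative values kept their side of the fold and p thresholds, 14 fell below them and 14 rose above them. Several values lie near 2-fold, so counts of 7 move easily. For CS+LPS against Control the count of 2 became 1 with quantile normalization and ran from 0 to 3 when each array was left out. For CS+LPS+NaHS against Control the count of 1 became 0 with normexp and was 1 throughout the leave-one-out fits, but not always the same probe. Without Control replicate 3, with slide as a block and within slide 1, the call of RT1-DMa was lost (0.70). The 1 was then RT1-Db1 probe A_64_P134927, which was lower (-1.03). For CS+LPS+PPG against Control the count of 1 became 0 with quantile normalization, with the 75th percentile over probes detected on all arrays, with slide as a block and within slide 1, and ran from 0 to 2 with each array left out. Against CS+LPS, slide as a block gave 2 for CS+LPS+NaHS and 1 for CS+LPS+PPG in place of 0 where 20.4% and 20.2% of all tested probes were DE (1.95% and 2.14% without the block), and the leave-one-out counts were 0 to 0 and 0 to 1. With the replicate number as a block the counts were 2, 1, 1, 0 and 0, as without it.

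The mean signal of RT1-Bb probe A_44_P552452 in CS+LPS was 3.15 with quantile normalization, 6.10 with normexp and 3.15 in the authors' own signals, against 2.83, and in CS+LPS+NaHS it was 6.43 with normexp against 3.88. The mean of probe A_64_P043911 in CS+LPS+NaHS was 14.43 with normexp against 14.62. With normexp the median log2 difference of all tested probes between CS+LPS and Control was -0.16 against -0.06. The count of all-or-none probes was 904 at a range of at least 3 log2 units and 137 at 5, and 1 member probe was among them at each. Of the 10 genes most like the class II mean, 3 were shared with quantile normalization, and of those most like RT1-Bb, 3 were shared after slide means were removed. For values near background the signal limits what can be read, which is why bounds are given there. The causes of these shifts were not tested.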
